A study of Mus musculus with 4 samples.

Results

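The genes described here are 10 genes of the smooth muscle contractile apparatus and its control: *Acta2*, *Tagln*, *Myh11*, *Cnn1*, *Actg2*, *Myocd*, *Lmod1*, *Mylk*, *Des* and *Smtn*. They were taken by symbol from single-cell count matrices of the fetal mouse penis, and all 10 were found among the 32287 features of the matrices. The matrices came from penises of male embryos at E16.5, as 2 DTA- and 2 DTA+ samples of 1 library each. DTA+ embryos carried *Nr5a1-Cre* Tg/+ and *Rosa-LSL-DTA* +/f, so that diphtheria toxin was made in cells with a history of *Nr5a1-Cre* activity, and the study's methods also give them a *Rosa-LSL-tdTomato* allele. DTA- embryos carried *Rosa-LSL-DTA* f/+ without the Cre, and their genotype is labelled WT. Both groups thus carried the toxin allele, which stays silent without the Cre. The driver also acts outside the penis, in the testis and the adrenal gland, so an effect of losing genital cells and an effect of altered hormones cannot be told apart in this design. The comparison asked how the penis develops once these cells are ablated.

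Contraction of smooth muscle rests on actin and myosin filaments that are held together by accessory proteins. *Myocd* encodes myocardin, a coactivator that binds serum response factor (SRF), and SRF in turn binds CArG boxes in the control regions of many contractile genes. In the penis, such cells are found in vessel walls, where pericytes and vascular smooth muscle cells share many of these transcripts, and in the erectile tissue.

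The 4 libraries held between 11343 and 12580 cell barcodes and between 50779551 and 73577028 UMIs (unique molecular identifiers, each marking a captured mRNA molecule), and pairs of libraries shared 31 to 48 barcodes. *Nr5a1* had 1 UMI in each DTA- library and 2 in each DTA+ library. The *tdTomato* reporter had 0 UMIs in both DTA- libraries, and 3579 and 3140 in the DTA+ libraries. Cells above 1000 and below 7500 UMIs were kept in the main comparison (31132 cells, 6573 to 8810 per library), and every comparison was repeated with the deeper cells added. The first DTA- library stood apart in depth, since 27.7% of its otherwise acceptable cells lay at or above 7500 UMIs, against 11.3% to 14.0% in the other 3.

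*Acta2* lies at chr19:34241090-34255590 and *Myocd* at chr11:65176561-65269989, both on the minus strand of GRCm38. Of the 10 genes, only *Tagln*, at chr9:45929619-45936058 on the minus strand, overlaps another protein-coding gene, *Pcsk7*, which lies on the opposite strand. The CArG box was sought upstream of these genes because it is the site through which myocardin and SRF act. It was written as CC, 6 bases of A or T, then GG, and a looser form allowed 1 base other than A or T among the 6; both strands read the same form. Windows of 250 bases upstream of the RefSeq start (build GRCm38.p6) were read for 6 of the 10 genes: *Acta2*, *Cnn1*, *Lmod1*, *Mylk*, *Des* and *Smtn*. *Tagln*, *Myh11*, *Actg2* and *Myocd* were not searched. The *Mylk* and *Smtn* windows lie inside the GENCODE gene, so the sequence before its outermost start was not read. None of these 6 windows held the strict form. Among them, the looser form was present only at *Acta2*, in 2 copies that start 84 and 34 bases before the RefSeq start. Both copies are shown with 10 bases on each side and the box in capitals; the stretches shown lie at chr19:34255438-34255467 and chr19:34255388-34255417 on the minus strand:

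Acta2 distal box: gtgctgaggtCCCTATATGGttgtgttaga

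Acta2 proximal box: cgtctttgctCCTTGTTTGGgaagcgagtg

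Of 32851 promoters of the same length, 8.59% held the looser form, 0.67% held it in at least 2 copies and 1.47% held the strict form. The GENCODE annotation counts both boxes as part of the untranslated region of a longer *Acta2* transcript.

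Cells were clustered without the 10 genes and named from marker lists that left them out, except that the smooth muscle-like name also asked for contractile genes, the 10 included, among the leading genes of a cluster. Higher levels of the 10 genes in that cluster than elsewhere, and their differences between the groups within it, are therefore given as a description. Of 24 clusters, 1 was pericyte-like. It was led by *Rgs5*, *Acta2* and *Kcnj8*, and all 12 pericyte markers were enriched in it. It held 24 and 74 cells below 7500 UMIs in the DTA- libraries and 72 and 48 in the DTA+ libraries. A further cluster was smooth muscle-like, with 453 and 1065 DTA- cells and 170 and 70 DTA+ cells. Most smooth muscle markers did not bear out its name. *Acta2*, *Agtr2* and *Dlk1* led it and 5 of its 10 leading genes were contractile genes (*Acta2*, *Actg2*, *Tagln*, *Myocd* and *Myh11*). All 5 belong to the genes described here. Only 4 of the 17 smooth muscle markers were enriched (*Myl9*, *Tpm1*, *Ppp1r14a* and *Itga8*), while 8 of the 13 fibroblast markers were. The 13 fibroblast markers summed to 23413 to 43882 CPM in its libraries, above the 10854 to 15979 CPM of the fibroblast-like class. It is an *Acta2*-led cluster with many fibroblast genes, and the name is kept only for the rule that gave it. Its boundary was not sharp: the same clustering with another linear algebra kernel, which differs by rounding only, gave the class 81.1% of these cells. Of 1758 cells in all, the class held 270 when the 10 genes were kept for clustering and 195 when only cells under 7500 UMIs were clustered, and at resolution 0.4 no cluster took the name. Fibroblast-like cells, in 13 clusters, numbered 5025 and 5514 in DTA- and 6169 and 7531 in DTA+ penises. One of these clusters, led by *Akap12* and *Iyd*, held 24 and 23 DTA- cells but 878 and 672 DTA+ cells. Skeletal muscle did not form a cluster, and 9 of its 10 markers were at 0 in the pericyte-like cells of each library.

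*Acta2*, which encodes smooth muscle α-actin, was highest in the pericyte-like cells. Its level was 1792 and 2339 CPM (UMIs per 1000000 UMIs of the summed cells) in the pericyte-like cells of the DTA- libraries and 2835 and 2292 CPM in those of the DTA+ libraries. In smooth muscle-like cells it was 706 and 472 CPM in DTA- and 373 and 116 CPM in DTA+. The lowest pericyte-like library thus lay above the highest smooth muscle-like library. In fibroblast-like cells, *Acta2* was 20.7 and 27.6 CPM in DTA- and 13.9 and 9.89 CPM in DTA+. Blood-lineage cells (macrophages, mast cells and erythroid cells), which should lack these genes, held 125 and 22.7 CPM in DTA- and 17.6 and 8.49 CPM in DTA+. This pooled level was not shared by their classes. Erythroid-like cells held 145, 34.9, 25.5 and 13.4 CPM, in the same order of libraries. Macrophage-like cells held 110, 2.59, 12.7 and 7.90 CPM, and mast cell-like cells 45.9, 0, 0 and 0 CPM. After every cell was thinned to 1000 UMIs, 1.33% and 1.76% of DTA- and 0.827% and 0.797% of DTA+ fibroblast-like cells had an *Acta2* UMI. All 4 shares lay within the exact binomial 95% interval of the blood-lineage share of their own library, which spanned 1.06% to 5.33% and 0.191% to 2.67% in DTA-, and 0.354% to 3.28% and 0% to 2.09% in DTA+. These intervals cover counting error only. Median depths were 3508 to 4640 UMIs in the fibroblast-like and 4634 to 5056 UMIs in the blood-lineage cells. *Acta2* in the fibroblast-like class as a whole could thus not be told apart from the blood-lineage level at this depth. That level was not shared by all cells: glia-like cells held 0, 0, 0 and 3.19 CPM, in the same order, and the fibroblast-like clusters with at least 20 cells in the second DTA- library ranged from 3.43 to 75.6 CPM. How far free RNA contributed was not tested.

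*Myocd* followed another order. Among the averages of the named classes, it was highest in smooth muscle-like cells, at 63.6 ± 24.5 CPM (SD, n = 4 libraries), then in pericyte-like cells, at 21.5 ± 6.98 CPM, and then in fibroblast-like cells, at 10.8 ± 5.66 CPM. The fibroblast-like clusters led by *Akap12*, at 35.9 CPM, and by *Sostdc1*, at 33.7 CPM, stood above the pericyte-like average. The *Akap12* value was raised by its DTA- libraries, at 62.2 and 38.6 CPM from 24 and 23 cells. In DTA+, with 878 and 672 cells, it was 22.5 and 20.2 CPM. The lowest smooth muscle-like library, at 34.5 CPM, lay above the highest pericyte-like library, at 28.6 CPM, although only 2, 10, 11 and 4 *Myocd* UMIs stood behind the pericyte-like values. With the deeper cells added, these ranges overlapped. Pericyte-like cells of the first DTA+ library then held 33.4 TMM-normalised CPM, and smooth muscle-like cells of the second DTA+ library 20.8. The pericyte-like and fibroblast-like ranges overlapped. *Myh11*, the smooth muscle myosin heavy chain, reached 161 ± 65.7 CPM in pericyte-like and 94.0 ± 53.7 CPM in smooth muscle-like cells, and *Actg2*, the enteric smooth muscle actin, 129 ± 66.0 and 53.9 ± 41.3 CPM. For both genes the ranges of the populations overlapped.

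*Mylk*, the kinase that phosphorylates the myosin light chain, was 418 ± 84.9 CPM in pericyte-like cells and 175 ± 48.9 CPM in smooth muscle-like cells, and the ranges did not meet. Among the averages of the named classes, endothelial-like cells came next at 71.3 ± 11.8 CPM, but the fibroblast-like cluster led by *Inhba* stood above them at 119 CPM. *Tagln* (transgelin, an actin-binding protein) showed 913 ± 336 CPM, 340 ± 141 CPM and, in glia-like cells, 142 ± 40.8 CPM. *Smtn* (smoothelin) departed from the rest, with its highest level in endothelial-like cells, at 49.8 ± 3.57 CPM, against 31.2 ± 14.0 CPM in pericyte-like and 11.7 ± 1.62 CPM in smooth muscle-like cells. *Des*, the muscle intermediate filament desmin, was 79.7 ± 11.1 CPM in pericyte-like, 64.7 ± 40.1 CPM in smooth muscle-like and 49.0 ± 17.1 CPM in the unnamed clusters led by *Sox9* and *Col9a1*. *Lmod1*, a nucleator of actin filaments, was 50.01 ± 30.5 and 21.0 ± 15.4 CPM in pericyte-like and smooth muscle-like cells, and *Cnn1*, calponin, 13.4 ± 14.3 and 20.4 ± 7.40 CPM, each with overlapping ranges. In fibroblast-like cells *Lmod1* stood at 1.37 to 3.01 CPM and *Cnn1* at 0.214 to 0.359 CPM. These are levels of 1 gene in different cells, and since capture at the 3' end differs between genes, levels of different genes are not compared.

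**Figure D1:**
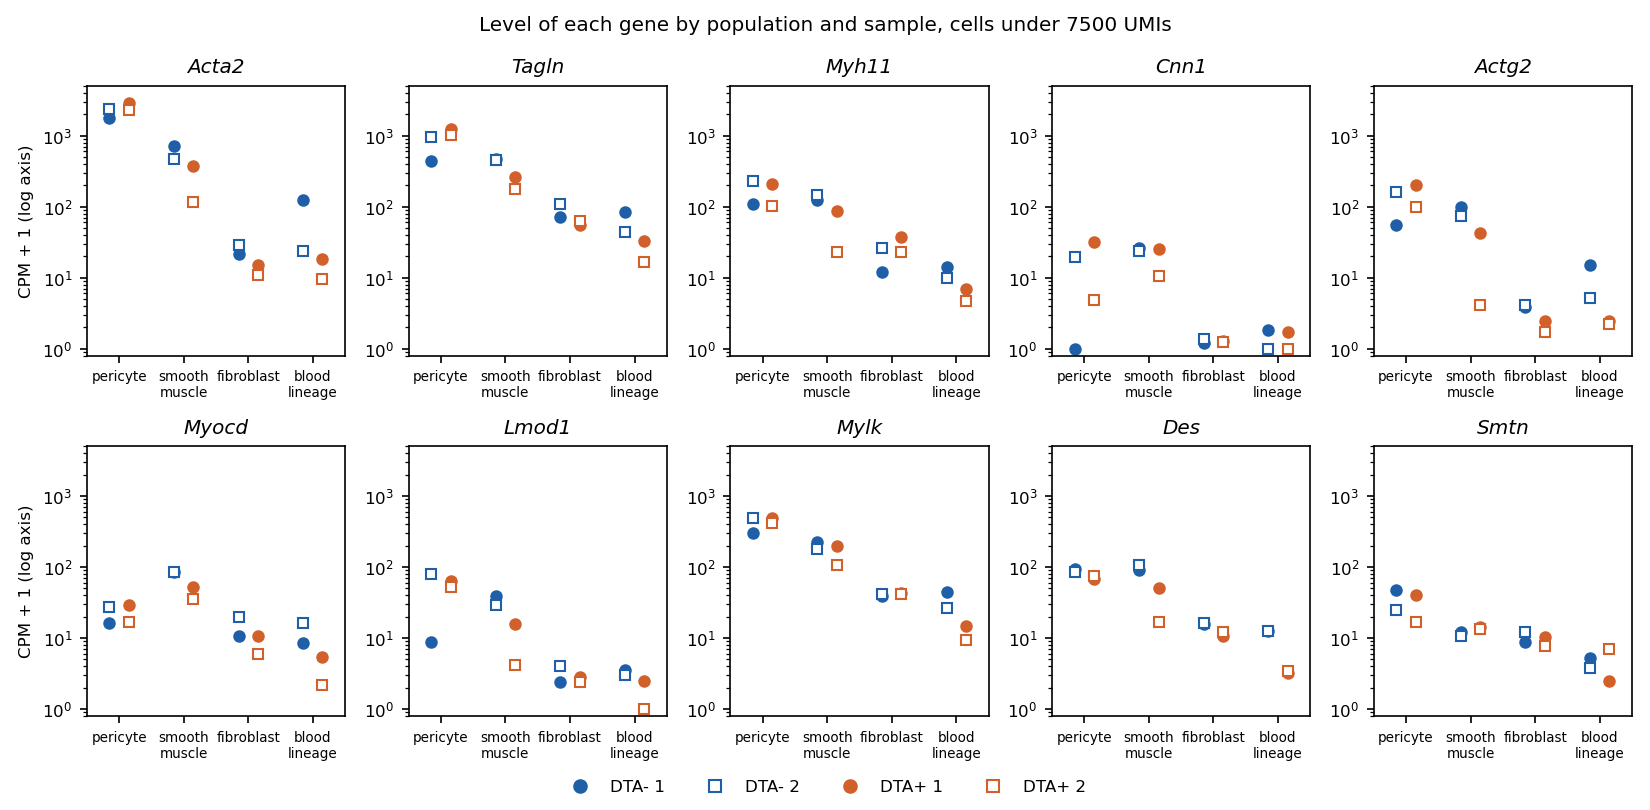
Level of each of the 10 genes, as CPM + 1 on a log axis, in pericyte-like, smooth muscle-like, fibroblast-like and blood-lineage cells below 7500 UMIs. Each point is 1 library (blue DTA-, orange DTA+, circles replicate 1, squares replicate 2); *Acta2* ranged from 1792 to 2835 CPM in pericyte-like cells, while its fibroblast-like and blood-lineage points overlap.

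In pericyte-like cells, none of the contractile genes was called changed in DTA+ penises. UMIs were added up within each library and the sums were tested by edgeR (quasi-likelihood), with p-values adjusted over all genes after Benjamini and Hochberg; a gene is called at an adjusted p below 0.05. Since the replicates are separate libraries with no further label, the p-values measure the spread between these samples. The fits pool this spread partly or wholly over genes. Of the 10 genes, 8 passed the filter on low counts, *Cnn1* and *Myocd* did not, and 0 of the 8 were called, against 0.0913% of all 4382 genes tested. Of the 8, 1 (*Tagln*) had an unadjusted p below 0.05, and DESeq2 called 0. The share of all genes below that unadjusted limit was not counted. *Acta2* differed by 0.31 on the log2 scale (SE 0.22, adjusted p = 0.999 by edgeR). *Tagln* was 440 and 949 CPM in DTA- and 1227 and 1037 CPM in DTA+, and the groups did not overlap, at a log2 difference of 0.65 (SE 0.30, adjusted p = 0.998 by edgeR). Without the second DTA- library, which leaves the 24 cells of the first as the only control, *Tagln* was called higher, with a log2 difference of 1.46 and an adjusted p of 0.00229 by edgeR, in a fit that called 45 of 4488 genes. *Lmod1*, *Mylk*, *Smtn*, *Actg2*, *Myh11* and *Des* differed by between -0.32 and 0.30.

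Adding the deeper cells, the pericyte-like population grew to 82 and 120 DTA- cells and 149 and 111 DTA+ cells. All 10 genes were then tested and 0 were called, against 0.0619% of 8072 genes; 0 had an unadjusted p below 0.05. *Myocd*, now measurable, was 8.23 and 22.2 TMM-normalised CPM in DTA- and 33.4 and 21.3 in DTA+. The groups overlapped, and the log2 difference was 0.87 (SE 0.41, adjusted p = 0.873 by edgeR). The gap in *Tagln* shrank to 0.16. In a simulation on the main pericyte-like sums, 85% of genes changed by 2 on the log2 scale and 20.5% of those changed by 1 were recovered, so changes of the smaller size were mostly not detectable here. The 7 erythroid markers summed to 3058 and 13397 CPM in DTA- and 595 and 187 CPM in DTA+ pericyte-like cells, with 2 or 3 of them at 0, and their part in the result was not tested.

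In the smooth muscle-like cells, 4 of the 10 genes were called lower in DTA+ and 0 higher, against 1.63% of all 9692 genes lower and 1.96% higher. The class took its name through high levels of 5 of these genes, in cells that were mostly DTA-. The 10 genes are thus not on equal terms with all genes here, and the count is a description. Both actins and 2 other contractile genes were called. *Actg2* stood at 99.1 and 72.1 CPM in DTA- and at 41.1 and 3.14 CPM in DTA+, the last from 1 UMI. The groups did not overlap, and the log2 difference was -1.49 (SE 0.39, adjusted p = 0.0338 by edgeR). *Acta2*, with the values given above, had no overlap either, with a log2 difference of -1.10 (SE 0.31, adjusted p = 0.0490 by edgeR).

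*Tagln* was 464 and 454 CPM in DTA- and 265 and 179 CPM in DTA+. Here the DTA- libraries were close to each other and both DTA+ libraries lay below them, at a log2 difference of -0.95 (SE 0.21, adjusted p = 0.00949 by edgeR). *Des* was 88.8 and 105 CPM in DTA- against 49.6 and 15.7 CPM in DTA+, the last from 5 UMIs. Its groups did not overlap and differed by -1.28 (SE 0.32, adjusted p = 0.0222 by edgeR). For all 4 called genes, the second DTA+ library, with 70 cells, was the lowest.

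*Myocd* itself was 82.7 and 84.9 CPM in DTA- and 52.0 and 34.5 CPM in DTA+. The groups did not overlap, but the log2 difference of -0.80 (SE 0.27) did not pass the test (adjusted p = 0.125 by edgeR). *Lmod1* was 38.3 and 28.1 CPM in DTA- and 14.5 and 3.14 CPM in DTA+, the last from 1 UMI. Neither *Myh11* nor *Lmod1* overlapped between the groups, and neither was called, with *Myh11* at -1.01 (SE 0.32, adjusted p = 0.0940), and *Lmod1*, at -1.48 (SE 0.43, adjusted p = 0.0609), both by edgeR. *Cnn1* (-0.22), *Mylk* (-0.27) and *Smtn* (0.41) were not called. The median log2 difference over the 10 genes was -0.98, and 9 of 10 were negative, against a median of -0.00 and 50.1% negative over all genes tested. The naming of the class through these genes limits this comparison too.

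These calls rested on the second DTA+ library. Without it, 0 of the 10 genes were called, with adjusted p-values of 0.277 for *Acta2*, 0.139 for *Tagln*, 0.179 for *Actg2* and 0.218 for *Des* by edgeR, although all 4 log2 differences stayed negative, between -0.56 and -0.95, while 372 of all 11138 genes were called. Leaving out any 1 of the other libraries gave 6 called genes, the same 4 with *Myh11* and *Lmod1*, beside 443 of 8794 genes without the first DTA-, 455 of 8793 without the second DTA- and 186 of 11132 without the first DTA+ library. DESeq2 called only *Tagln*. The population also differed in other ways between the groups. The fibroblast markers summed to 23413 and 27644 CPM in DTA- and 43882 and 38964 CPM in DTA+, with none of the 13 at 0. The 17 smooth muscle markers summed to 2838 and 2541 CPM in DTA- and 2312 and 2129 CPM in DTA+, and 2, 0, 6 and 8 of them were at 0, in that order. Cells with at least 2 UMIs of endothelial, epithelial, blood or glial markers were counted by a planned and a shorter list. By the shorter list, chosen after seeing the data, they made up 11.2% of this population in the first DTA+ library. Their share was 1.55% and 3.005% in DTA- and 2.86% in the second DTA+ library. By the planned list, it was 12.1% and 10.99% in DTA- and 18.8% and 11.4% in DTA+. The part of these differences in the result was not tested. Without such cells, 2 of the 10 genes were called by either list, with 270 of 9331 genes by the planned and 301 of 9589 by the shorter list.

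Over all depths, 3 genes were called lower in smooth muscle-like cells, against 2.16% of 10894 genes lower and 2.49% higher. They were *Tagln* (log2 difference -1.26, SE 0.23, adjusted p = 0.00108 by edgeR), *Des* (-1.19, SE 0.25, adjusted p = 0.00446 by edgeR) and *Lmod1* (-1.63, SE 0.41, adjusted p = 0.0217 by edgeR). *Acta2* was no longer called. Its TMM-normalised CPM was 696 and 438 in DTA- and 499 and 66.7 in DTA+, so the groups overlapped (-0.95, adjusted p = 0.272 by edgeR). *Tagln* and *Des* were thus the genes called in this population at both depths.

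**Figure D2:**
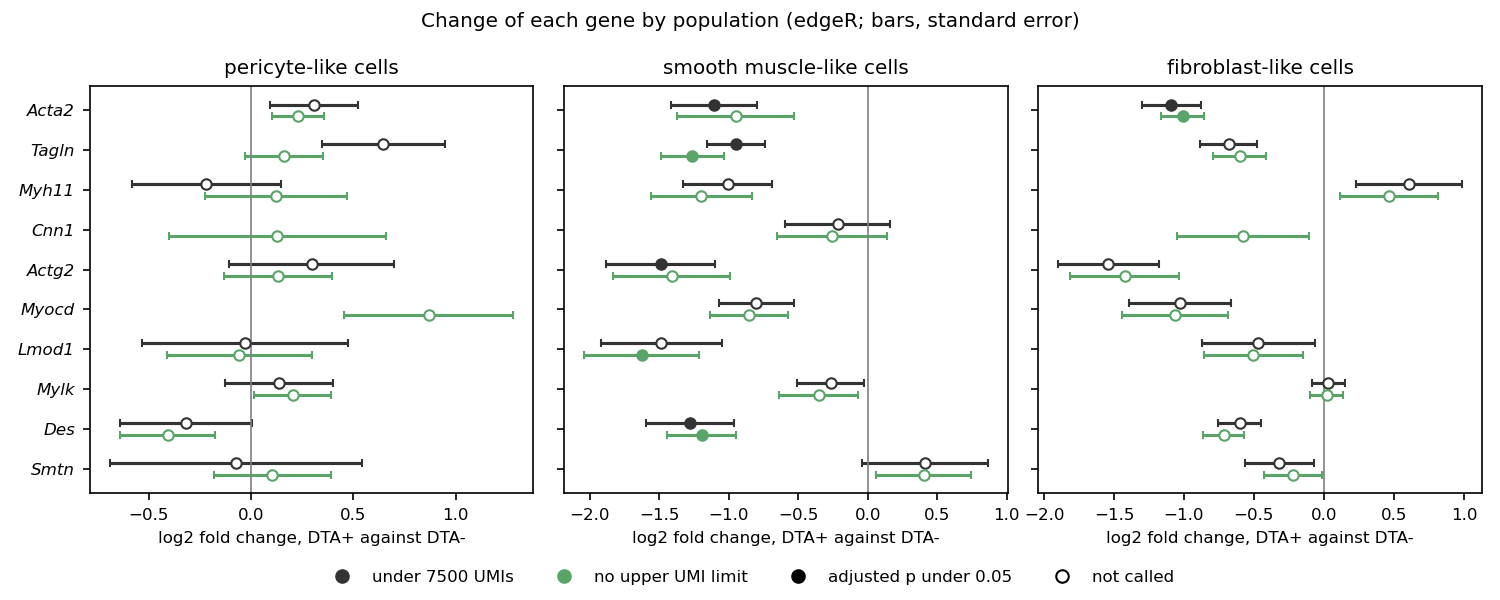
Log2 fold change of each gene in DTA+ against DTA- penises in the 3 populations, with bars for the standard error. Black stands for cells below 7500 UMIs and green for all depths, and filled points have an edgeR adjusted p below 0.05; in smooth muscle-like cells 9 of 10 points lie below 0, while in pericyte-like cells none is filled.

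In the fibroblast-like cells, 1 of 9 tested genes was called lower and 0 higher, against 1.25% of 14835 genes lower and 1.24% higher; *Cnn1* did not pass the filter. The called gene was *Acta2*, at -1.09 (SE 0.21, adjusted p = 0.0463 by edgeR), at the levels given above, which could not be told apart from those of blood-lineage cells. The blood-lineage values were also higher in both DTA- than in both DTA+ libraries, and their part in the result was not tested. The call was lost without the first DTA- library (adjusted p = 0.0603), without the second (0.0802) or without the second DTA+ library (0.0573), all by edgeR. Without the second DTA- library none of the genes was called, and without the first *Tagln* was called lower. Without the first DTA+ library *Acta2*, *Actg2* and *Myocd* were called lower. Without the second DTA+ library *Myh11* was called, but higher. It stood at 10.99 and 25.6 CPM in DTA- and at 36.2 CPM in the first DTA+ library. *Actg2*, at 0.734 to 3.14 CPM, was below the blood-lineage level in all 4 libraries.

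*Tagln* was 69.7 and 109 CPM in DTA- and 53.8 and 62.7 CPM in DTA+ fibroblast-like cells. Its thinned share of cells was above the blood-lineage share in all 4 libraries, and above the interval of that share in both second libraries only. Its groups did not overlap, at -0.68 (SE 0.20, adjusted p = 0.145 by edgeR). *Myocd* was 9.84 and 18.6 CPM in DTA- and 9.57 and 5.03 CPM in DTA+. Blood-lineage cells held 7.48 and 15.1 CPM in DTA- and 4.40 and 1.21 CPM in DTA+. Among them, erythroid-like cells held 10.1, 21.8, 8.06 and 0 CPM, in the same order of libraries. Macrophage-like cells held 5.01, 5.19, 0 and 0 CPM, and mast cell-like cells 0, 0, 0 and 6.80 CPM. The thinned share of fibroblast-like cells with a *Myocd* UMI, 0.505% to 1.65%, was above the blood-lineage share but within its interval in all 4 libraries. Glia-like and endothelial-like cells held *Myocd* in the second DTA- library only, at 3.41 and 2.46 CPM. Its log2 difference of -1.03 (SE 0.37) was not called (adjusted p = 0.203 by edgeR). *Des* differed by -0.60 (SE 0.16, adjusted p = 0.0971 by edgeR), *Mylk* by 0.03 (SE 0.12) and *Myh11* by 0.61 (SE 0.38, adjusted p = 0.439 by edgeR), the last with overlapping groups and with a thinned share above the blood-lineage share in all 4 libraries and above its interval in 2. At all depths, *Acta2* was again the only gene called (-1.01, SE 0.15, adjusted p = 0.0259 by edgeR), against 1.19% of 15445 genes lower and 1.31% higher.

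Whether the populations differed in their response was tested directly, as an interaction within samples, over all genes. Pericyte-like and fibroblast-like cells differed for 2 of 10 genes, against 0.284% of 14085 genes. The response of *Acta2* was 1.47 higher on the log2 scale in pericyte-like cells (SE 0.28, adjusted p = 0.000123 by edgeR), and that of *Tagln* 1.46 higher (SE 0.26, adjusted p = 2.11e-05 by edgeR). For *Acta2* this sets pericyte-like cells against fibroblast-like levels that could not be told apart from those of blood-lineage cells. Without the first DTA+ library neither was called (adjusted p = 0.530 and 0.765 by edgeR), and without the second only *Tagln* was (0.0429), with 21 of all genes called in either fit. Over all depths, *Acta2*, *Tagln*, *Actg2* and *Myocd* were called, against 1.24% of 14926 genes, all with a higher response in pericyte-like cells. The difference for *Myocd* was 1.93 (SE 0.41, adjusted p = 0.000513 by edgeR). In the fits of all 4 libraries at either depth, the p-values matched a normal distribution. The spread was thus pooled over genes, and a gene's own spread between libraries had no weight in them.

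Smooth muscle-like and fibroblast-like cells differed for 1 gene, *Myh11*, against 3.87% of 14495 genes. *Myh11* was 121 and 146 CPM in DTA- and 87.1 and 22.0 CPM in DTA+ smooth muscle-like cells. In fibroblast-like cells it was 10.99 and 25.6 CPM in DTA- and 36.2 and 21.9 CPM in DTA+. The make-up of that class differed between the groups. Its cluster led by *Akap12* held 0.478% and 0.417% of the DTA- but 14.2% and 8.92% of the DTA+ cells of the class. There, *Myh11* was 62.2 and 12.9 CPM in DTA-, from 24 and 23 cells, and 83.3 and 52.3 CPM in DTA+. The part of this shift in the result was not tested. The difference of the responses was -1.79 (SE 0.25, adjusted p = 5.45e-06 by edgeR), and it was called in each of the 4 fits that left out 1 library. Without the first DTA+ library, 5 genes were called, *Acta2*, *Tagln*, *Mylk* and *Des* besides *Myh11*, with 388 of 14855 genes. At all depths it was -1.81 (SE 0.30, adjusted p = 0.000579 by edgeR), again the only call, against 4.96% of 14931 genes. For *Myocd* the difference was 0.02 (SE 0.28) and for *Acta2* -0.14 (SE 0.23), neither called; a p above the threshold does not show equal responses.

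Summed over all kept cells, none of the 10 genes passed the test. All 10 log2 differences were negative, with a median of -1.24 against -0.00 over all genes. In such sums, fewer cells of a type and less RNA per cell cannot be told apart. *Myocd* was 20.4 ± 8.80 CPM in DTA- and 7.19 ± 3.44 CPM in DTA+ (SD, n = 2), and *Des* 28.9 ± 6.49 and 13.3 ± 0.885 CPM. *Des* came closest to a call, at -1.20 (SE 0.18, adjusted p = 0.0596 by edgeR). edgeR called 0 of 10, against 0.488% of 15977 genes, and DESeq2 called 3 (*Tagln*, *Lmod1* and *Des*), with 544 of 23574 genes. An unadjusted p below 0.05 by edgeR was found for 8. The share of all genes below that unadjusted limit was not counted, so the 8 cannot be set against it. The count rose to 6 without the first DTA+ library, to 2 without the first DTA- library and to 1 without the second DTA+ library, while the count over all genes rose from 78 to 264, 176 and 203. With the deeper cells added, edgeR again called 0, against 0.124% of 16870 genes, and the median was -0.90. An unadjusted p below 0.05 was then found for 6, again without a count over all genes.

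The cells that carried these transcripts can also be counted. After thinning to 1000 UMIs, cells with at least 3 UMIs of the 10 genes together made up 1.80% (exact 95% interval 1.49% to 2.15%) and 3.76% (3.35% to 4.20%) of DTA- cells. In DTA+ libraries they made up 1.07% (0.852% to 1.32%) and 0.613% (0.461% to 0.799%). These intervals cover counting error only, and within each group those of the 2 libraries did not overlap. The groups did not overlap, at 2.78% ± 1.39 against 0.840% ± 0.321 (SD, n = 2), but an exact two-sided permutation test of 2 against 2 cannot go below its value here, p = 0.333. A further 122 to 223 cells per library lay just below the limit, with 2 such UMIs.

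Most of these cells were smooth muscle-like in DTA- penises, and fibroblast-like cells were the largest class among them in DTA+ penises. In DTA- penises, 61.9% and 58.8% of them were smooth muscle-like, 27.1% and 31.4% fibroblast-like and 5.93% and 7.77% pericyte-like. In DTA+ penises, 20.2% and 5.56% were smooth muscle-like, 46.4% and 64.8% fibroblast-like and 29.8% and 29.6% pericyte-like. Within pericyte-like cells, their share was 29.2% and 31.1% in DTA- and 34.7% and 33.3% in DTA+. Within smooth muscle-like cells it was 16.1% and 16.3% in DTA- and 10.0% and 4.29% in DTA+, within fibroblast-like cells 0.637% and 1.69% in DTA- and 0.632% and 0.465% in DTA+, and among blood-lineage cells it was 0% to 2.25%. Over all depths, such cells made up 2.12% and 3.83% of DTA- and 1.49% and 0.866% of DTA+ cells.

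**Figure D3:**
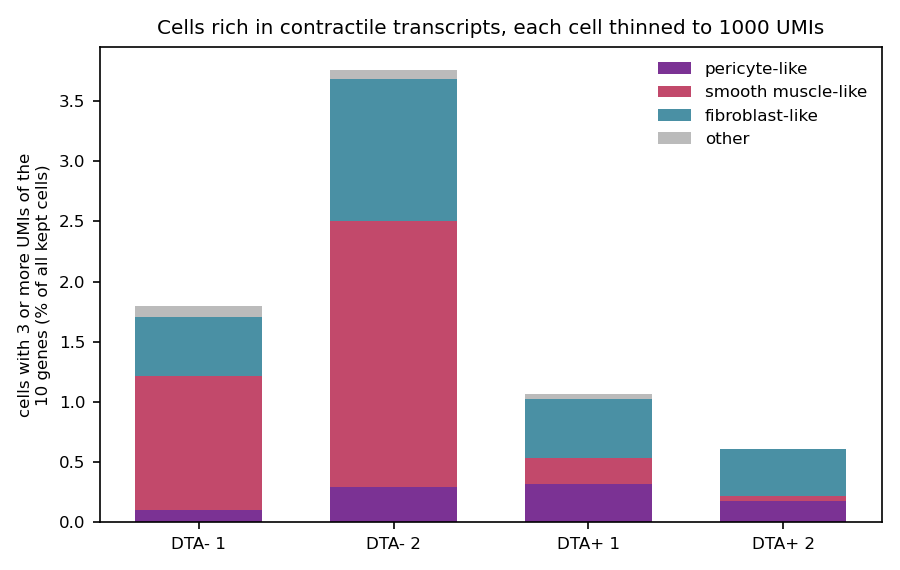
Share of kept cells (below 7500 UMIs) with at least 3 UMIs of the 10 genes after thinning each cell to 1000 UMIs, as a bar per library divided by cell population. The bars reach 1.80% and 3.76% in DTA- and 1.07% and 0.613% in DTA+, and the smooth muscle-like segment is the one that differs most between them.

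*Myocd* UMIs were also found in the fibroblast-like class, among others in its cluster led by *Sostdc1* and *Wnt16* (567 and 985 DTA- cells, 605 and 650 DTA+ cells). There, *Myocd* was 36.4 and 61.0 CPM in DTA- and 25.5 and 12.1 CPM in DTA+. *Acta2* was 32.6 and 75.6 CPM in DTA- and 11.9 and 10.0 CPM in DTA+, and *Tagln* 114 and 241 against 87.3 and 93.5 CPM. Of 9 of the 10 genes with at least 10 UMIs in this cluster, 6 lay higher in both DTA- than in both DTA+ libraries (these 3, *Actg2*, *Lmod1* and *Des*), against 16.9% of 13224 genes. The opposite held for 1, *Mylk*, against 24.5%. Low genes could pass the limit of 10 UMIs through the DTA- libraries alone, so these counts are a description. *Myocd* and *Tagln* were above the blood-lineage level of the same library in all 4. *Acta2*, *Actg2* and *Lmod1* were not in the first DTA- and the first DTA+ library. *Des* was below it in all 4, at 1.70 and 2.87 CPM in DTA- against 11.6 and 11.7 CPM in blood-lineage cells. *Myh11* did not follow, at 48.3 and 100 CPM in DTA- and 87.7 and 80.1 CPM in DTA+, and *Mylk* stood at 8.50 and 13.9 against 29.2 and 31.1 CPM. Other fibroblast-like clusters did not all follow. In the cluster led by *Kera*, *Acta2* went the other way, at 10.3 and 12.2 CPM in DTA- and 37.8 and 23.7 CPM in DTA+. No test was made within single clusters.

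**Figure D4:**
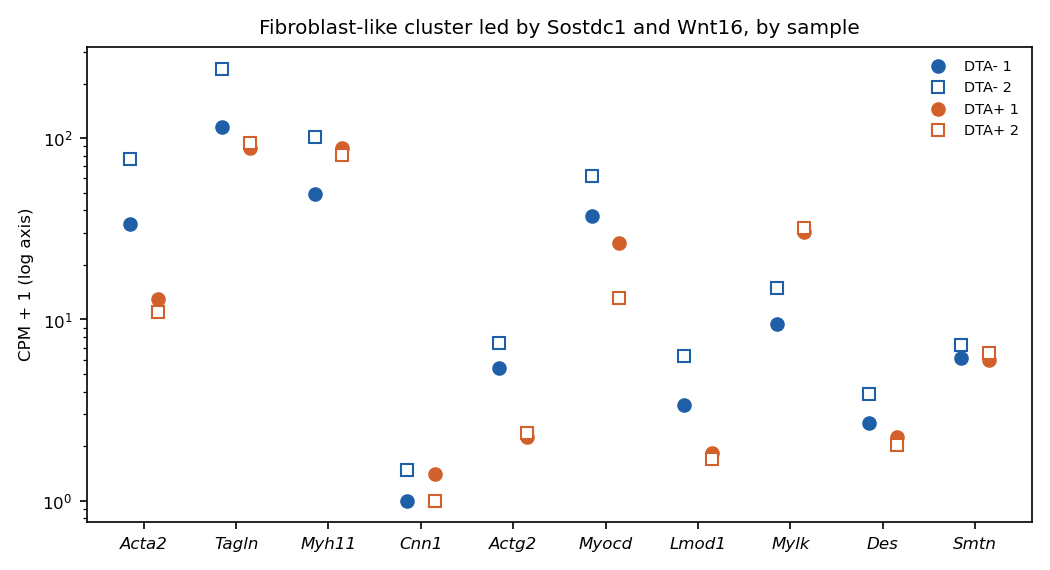
Level of each gene, as CPM + 1 on a log axis, in the fibroblast-like cluster led by *Sostdc1* and *Wnt16*, with 1 point per library. *Myocd*, *Acta2* and *Tagln* are higher in both DTA- libraries, *Myh11* overlaps between the groups and *Mylk* is higher in both DTA+ libraries.

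Over the 22 clusters with at least 20 cells in each library, the profile of *Myocd* was most like those of *Galnt16* (r = 0.929), *Pou3f3* (0.910), *Cap2* (0.890), *Tmem158* (0.877) and *E330013P04Rik* (0.874), out of 10354 genes. The mean profile of the 10 genes was most like *Adra2a* (0.924), an α2-adrenergic receptor, *Avpr1a* (0.870), a vasopressin receptor, *Cap2* (0.859), *Ccdc141* (0.846) and *Nr2f1* (0.843). These are descriptions across clusters that share libraries.

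**Figure D5:**
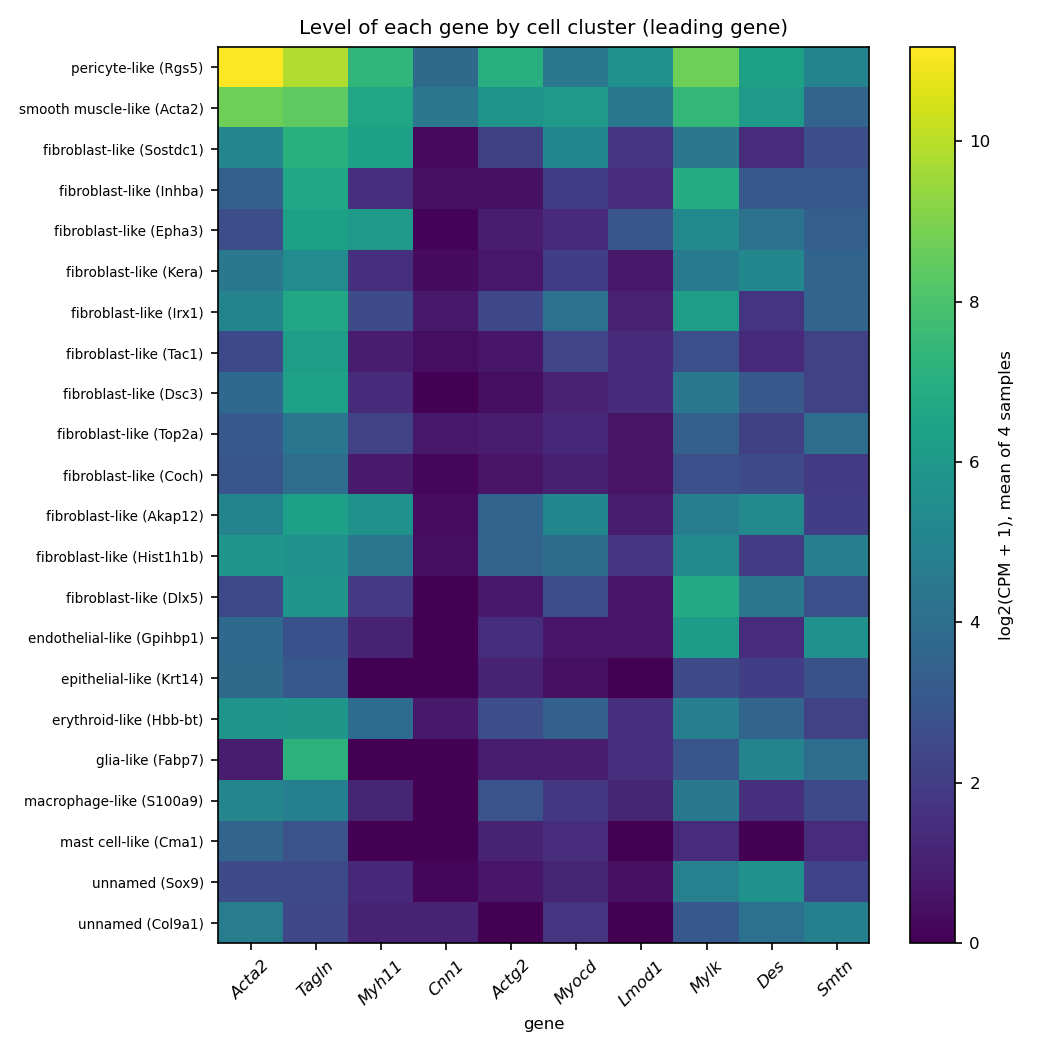
Mean level of each gene over the 4 libraries, as log2(CPM + 1), in each of the 22 clusters, named by class and leading gene; colours are to be read down a column. The pericyte-like and smooth muscle-like rows are bright across most genes. *Myocd* and *Myh11* also reach into the fibroblast-like clusters led by *Sostdc1* and *Akap12*, and *Myh11* into the one led by *Epha3*.

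Contractile genes outside the 10 gave calls in both directions. Of a wider list of 29 such genes, 14 were tested in pericyte-like cells and 0 called (median 0.08). The list includes the 17 smooth muscle markers. The smooth muscle-like class was named through 4 of these, *Myl9*, *Tpm1*, *Ppp1r14a* and *Itga8*, in cells that were mostly DTA-. The values of these 4 in that class are thus a description. In smooth muscle-like cells 19 were tested (median -0.24), with 1 called lower and 1 higher. *Ppp1r14a*, an inhibitor of myosin phosphatase, was 233 and 182 TMM-normalised CPM in DTA- and 98.1 and 65.2 in DTA+, without overlap (log2 difference -1.27, adjusted p = 0.00271 by edgeR). That call was lost after thinning (-0.72, adjusted p = 0.4005) and when cells were taken by a gate of at least 3 detected markers in place of clusters (-0.48, adjusted p = 0.279). *Palld*, the actin-bundling protein palladin, was 272 and 278 in DTA- and 523 and 394 in DTA+ on the same scale (0.75, adjusted p = 0.0256 by edgeR), and that call was lost without the first DTA+ library (adjusted p = 0.581), with the replicate block (0.144) and under DESeq2 (0.0593). In fibroblast-like cells 23 were tested and 2 called, both higher: *Palld* (1.31, adjusted p = 0.00940 by edgeR) and *Fhl1*, a LIM-domain protein (0.83, adjusted p = 0.0479 by edgeR). *Fhl1* lost its call under 10 of 24 alternatives, with adjusted p-values from 0.0514 to 0.111, among them the fits without the second DTA- (0.0660) or the first DTA+ library (0.111). *Palld* was also the gene called over all cells (1.15, adjusted p = 0.0398 by edgeR), where 25 of the list were tested, but not without the upper UMI limit (adjusted p = 0.0675). At all depths, *Myl9*, the regulatory myosin light chain (-0.81, adjusted p = 0.0281 by edgeR), and *Tpm2*, a tropomyosin (-0.65, adjusted p = 0.0494 by edgeR), were called lower in smooth muscle-like cells besides *Ppp1r14a*.

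Of 16 regulators, which include SRF, the myocardin-related factors and several kinases, 1 was called in smooth muscle-like cells. *Mef2c*, a muscle transcription factor, was 237 and 170 TMM-normalised CPM in DTA- and 463 and 379 in DTA+, higher in DTA+ without overlap (1.07, adjusted p = 0.00295 by edgeR), but not called without the first DTA+ library (adjusted p = 0.0731), with the marker gate (0.262) or at all depths without cells holding UMIs of a shorter list of other-lineage markers (0.0614). In the other populations below 7500 UMIs, 0 of the regulators tested were called, 11 in pericyte-like and 16 in fibroblast-like cells. Of 13 non-muscle counterparts such as *Actb* and *Myh9*, 0 of 13 were called in any of the 3 populations below 7500 UMIs, with medians of 0.05, -0.11 and -0.24 in pericyte-like, smooth muscle-like and fibroblast-like cells. At all depths, *Prkg1*, a cGMP-dependent kinase (-0.90, adjusted p = 0.0472 by edgeR), was called lower in smooth muscle-like cells, and *Tagln2*, the non-muscle relative of *Tagln* (-0.74, adjusted p = 0.0451 by edgeR), lower in fibroblast-like cells.

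Below 7500 UMIs, the responses of the smooth muscle-like and the fibroblast-like cells differed for 3 of 25 genes of the wider contractile list. They also differed for 2 of 16 regulators, against 3.87% of all 14495 genes. The called genes of both lists each had a lower response in smooth muscle-like cells. These were *Fhl1* (-1.42, adjusted p = 0.0227 by edgeR), *Ppp1r14a* (-0.88, adjusted p = 0.00334 by edgeR), *Palld* (-0.64, adjusted p = 0.00278 by edgeR), *Elk3*, an SRF partner (-1.56, adjusted p = 0.0143 by edgeR), and the kinase *Rock2* (-0.61, adjusted p = 0.0499 by edgeR). *Ppp1r14a* was among the markers that named the smooth muscle-like class, so its value is a description. Between pericyte-like and fibroblast-like cells, 0 of 25 contractile genes and 1 of 16 regulators differed, against 0.284% of 14085 genes. The regulator was the transcription factor *Klf4* (1.35, adjusted p = 0.0228 by edgeR).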

How the data were processed

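10x Genomics 3' libraries of 2 DTA- and 2 DTA+ samples were analysed. The authors deposited raw UMI counts of each gene in each cell, without normalization; the submitters' processing notes name Cell Ranger 4.0.0 and mm10. No value column went unused (0).

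The members and lists were chosen with earlier results of these data known. The cell limits followed the study: over 1000 and under 7500 UMIs, with mitochondrial and *Hba* counts up to 25% and *Hbb* counts up to 50% (31132 cells). No doublet caller was run. Clustering took the cells of all depths and 2000 variable genes other than the 10 members (Seurat 5.3.0, R 4.3.3, 30 principal components, resolution 0.8), with a fixed linear algebra kernel because rounding moved cells between classes. A name needed 3 enriched markers (in 5% of the cluster's cells, log2 fold 0.8 after adding 10 CPM) and leading genes (the first 10) that favoured no other class. For smooth muscle-like, 3 contractile genes had to be among them. Fibroblast-like clusters were set against the endothelial, epithelial, blood and glial ones (20% of cells, log2 fold 1). The data had been seen when these limits were set.

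Per-library sums went into edgeR 4.0.16 (quasi-likelihood, TMM factors, filterByExpr, genotype as the only term; limma 3.58.1), with adjustment after Benjamini and Hochberg; a population needed 20 cells in every sample. Interactions carried the sample as a block. DESeq2 1.42.0 served as an alternative. Named genes were the 10 members and, for each list and population, up to 4 called genes in each direction; *Fhl1*, *Palld*, *Ppp1r14a* and *Mef2c* came from this. Thinning drew 1000 UMIs per cell. The tests were tried on simulated data: of genes given a log2 change of 1, edgeR recovered 28% in smooth muscle-like cells (9692 genes) and 74.5% in fibroblast-like cells (14835 genes), but 0.5% (14085 genes) and 11% (14495 genes) for the pericyte-like and smooth muscle-like interactions. Python 3.11.15 (numpy 2.4.6, scipy 1.17.1, pandas 2.3.3, matplotlib 3.10.9) did the rest.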

Additional observations from a re-analysis of the deposited data

Results flagged for a closer look

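Some responses differed between populations of the same penises by the test of the difference itself. The response of *Acta2* to the ablation was 1.47 higher on the log2 scale in pericyte-like than in fibroblast-like cells, and that of *Tagln* was 1.46 higher. Neither of these 2 differences was called after thinning, with the marker gate or, as given above, without the first DTA+ library. In this fit a gene's own spread between libraries had no weight. For *Myh11*, the response in smooth muscle-like cells was -1.79 relative to fibroblast-like cells. *Myh11* was among the genes that named the smooth muscle-like class, so this value is a description. The make-up of the fibroblast-like class also differed between the groups, and its part in this value was not tested. The fibroblast-like side of the *Acta2* difference rests on 9.89 to 27.6 CPM, with shares of cells within the blood-lineage intervals.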

How the results depend on the processing

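Over all alternatives, no gene's call reversed. Of 1044 single-gene values, 905 stayed on their side of the threshold, 36 lost a call and 103 gained one. The 1044 include genes not called in the main comparison, which had no call to lose, so the 36 are not to be set against 1044. In smooth muscle-like cells *Acta2* and *Actg2* kept their calls under 10 of 19 alternatives each, *Des* under 15 and *Tagln* under 16. In fibroblast-like cells *Acta2* kept its call under 20 of 24. In the pericyte-like interaction *Acta2* kept it under 15 of 19 and *Tagln* under 16. *Myh11* kept it under 17 of 17 in the smooth muscle-like interaction. Some alternatives were chosen after seeing the data: the shorter list of other-lineage markers, the merged classes, the crossed pairing, 2 other random starts and another linear algebra kernel.

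In pericyte-like cells, 0 of the 10 genes were called under every alternative except without 1 library, where the count ran from 0 to 1. In smooth muscle-like cells the count of 4 fell to 1 after thinning, under DESeq2 and with the replicate block (*Acta2*), and to 2 with the marker gate and without cells holding other-lineage UMIs by the planned or the shorter list; leaving out 1 library gave 0 to 6. Repeat clusterings from other starts gave 3 and 4, and the other kernel 6, from 1438 to 1672 cells in place of 1758. In fibroblast-like cells the count of 1 became 2 under DESeq2, with the replicate block, when only cells under 7500 UMIs were clustered and without cells holding other-lineage UMIs. It became 3 at resolution 0.4, with the members kept for clustering and with both classes merged, 4 by the likelihood ratio test and 5 without a filter, and leaving out 1 library gave 0 to 3. Over all cells the count of 0 became 3 after thinning and under DESeq2, 6 by the likelihood ratio test and with the replicate block, and 7 without a filter, and leaving out 1 library gave 0 to 6. The pericyte-like interaction count of 2 became 4 without the upper UMI limit, with or without cells holding other-lineage UMIs, and 0 after thinning or with the marker gate; leaving out 1 library gave 0 to 3. The smooth muscle-like interaction count of 1 became 2 at resolution 1.2 and 3 with the marker gate, and leaving out 1 library gave 1 to 5. The cause was not tested.

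Among all genes, the 4 called in pericyte-like cells became 8 when only cells under 7500 UMIs were clustered, 9 with the members kept for clustering, 15 by the likelihood ratio test, 16 with the other kernel, 24 with the gate, 26 without a filter, 1 with the block or DESeq2 and 0 without cells holding other-lineage UMIs by the shorter list (9 at all depths). The 348 in smooth muscle-like cells became 57 after thinning, 150 with the gate, 141 with the block and 137 under DESeq2. The count there was 350 and 376 from the other starts and 435 with the other kernel. Without cells holding other-lineage UMIs it was 270 by the planned list and 301 by the shorter list. The 370 in fibroblast-like cells became 186 at resolution 0.4, 208 with the members kept, 220 when clustered under 7500 UMIs, 180 merged, 680 under DESeq2, 1015 by the likelihood ratio test and 1268 without a filter. The 78 over all cells became 21 without the upper limit, 141 thinned, 335 with the block, 544 under DESeq2, 658 by the likelihood ratio test and 659 without a filter. The 40 pericyte-like interactions became 185 without the upper limit (172 without cells holding other-lineage UMIs), 7 thinned and 12 with the gate, and the 561 smooth muscle-like ones 131 and 94.

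The replicate numbers are numbers only: deviations of same-numbered samples correlated at -0.0513, -0.0783, -0.264 and -0.234 in pericyte-like, smooth muscle-like, fibroblast-like and all cells. The crossed pairing called 6 of the 10 genes and 2364 in all in fibroblast-like cells, and 8 and 1668 over all cells. The smooth muscle-like class gave no value at resolution 0.4, where no cluster took the name. It gave none with the members kept for clustering or clustered under 7500 UMIs either, with under 20 cells in the second DTA+ library. The planned other-lineage filter left under 20 pericyte-like cells in the first DTA- library, with 12, and in the second DTA+ library, with 17. With 24 to 74 pericyte-like and 70 smooth muscle-like cells in the smallest libraries, depth limits what these populations could show.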
